A study of Mus musculus with 16 samples.

Results

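The 9 genes Perp, Dsp, Dsg2, Dsc2, Dsc3, Pkp1, Pkp2, Pkp3 and Jup, which encode proteins of the desmosome, were followed over 16 microarrays of mouse mammary tissue. All probe sets that the annotation of the array gave to 1 of these genes alone were taken, whatever their signal. These were 21 of the 22690 probe sets on the Affymetrix Mouse Genome 430A 2.0 array. Total RNA came from 7 tumours of mice with a transgene for constitutively active STAT5 (STAT5ca), from 6 tumours of mice with a transgene for a STAT5 truncated at its C-terminus (STAT5Δ750), and from 3 normal mammary glands. All mice were on an FVB/N background, and the tumours were snap-frozen after excision. The labels give no genotype, age or reproductive stage for the glands. The promoter of the transgenes, the histology of the tumours and the age of the mice are not given in the sources used here. Nor do the labels say that each array is of a separate animal, so p-values measure only the spread between these samples.

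Desmosomes are spots of adhesion that join neighbouring epithelial cells and anchor their keratin filaments. Desmosomal cadherins (desmogleins such as Dsg2, desmocollins such as Dsc2 and Dsc3) span the membrane and bind those of the next cell. Inside the cell, plakoglobin (Jup) and the plakophilins (Pkp1, Pkp2, Pkp3) bind the cadherin tails, and desmoplakin (Dsp) links this plaque to keratin. Perp is a membrane-spanning desmosome protein of stratified epithelia and was first described as a p53 target in apoptosis. STAT5 carries the prolactin signal to milk genes in the mammary epithelium. The question the arrays address is how tumours with each STAT5 variant differ from normal gland and from each other.

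Promoter sequences are shown for Dsp and Jup, which encode both links of the plaque between cadherins and keratin. They are the 2 of the 9 genes matched in the RefSeq promoter table of mouse build GRCm38.p6. Each sequence runs from 250 bases before to 50 bases after the gene start used in that promoter table, read 5′ to 3′ on the strand of the gene. The listed locus of Jup begins on its strand at 100397839, which is not the start used for its window. Capitals mark matches to 3 motifs searched on both strands. One was the STAT5 palindrome TTCNNNGAA, which reads the same on both strands. Another was the E-box CAGGTG, which on the other strand appears in the printed sequence as CACCTG. The last was the GC box GGGCGG, which on the other strand appears in the printed sequence as CCGCCC.
Dsp, chr13:38151044-38151343, plus strand: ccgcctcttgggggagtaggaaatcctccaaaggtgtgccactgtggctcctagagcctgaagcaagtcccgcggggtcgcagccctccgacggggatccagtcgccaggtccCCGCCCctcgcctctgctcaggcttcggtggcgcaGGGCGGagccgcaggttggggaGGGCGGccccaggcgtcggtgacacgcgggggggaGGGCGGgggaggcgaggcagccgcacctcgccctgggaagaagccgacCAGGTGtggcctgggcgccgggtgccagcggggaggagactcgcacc
Jup, chr11:100397741-100398040, minus strand: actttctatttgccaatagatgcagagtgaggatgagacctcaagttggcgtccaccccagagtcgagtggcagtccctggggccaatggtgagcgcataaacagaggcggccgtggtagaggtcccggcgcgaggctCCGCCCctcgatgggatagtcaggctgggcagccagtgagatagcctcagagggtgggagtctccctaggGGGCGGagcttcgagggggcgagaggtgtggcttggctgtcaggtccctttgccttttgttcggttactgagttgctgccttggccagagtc
The Dsp window held 4 GC boxes and 1 E-box, and the Jup window held 2 GC boxes and no E-box. Neither held the STAT5 palindrome. Of all 32851 promoters of this length in the table, 35.7% held a GC box, 20.2% an E-box and 8.30% the STAT5 palindrome. No marked motif overlapped another. A match is a match of letters only and is no evidence of binding.

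Signals are given on a linear scale after each array was scaled to a common median of 75.9. They were tested as log2 of the signal plus 7.9, which understates the change of dim probe sets. Signals of different probe sets were not compared with each other. A probe set was tested if its deposited signal was above 35.4 on at least 3 arrays, and each gene was represented by its probe set of highest mean level. By this filter 18 of the 21 probe sets and 8 of the 9 genes were tested, among 9261 genes in all. The single probe set of Dsc3, a desmocollin of basal keratinocytes, was above 35.4 on 0 arrays. Its scaled signal lay between 6.28 and 21.3 in STAT5ca tumours, between 4.41 and 16.5 in STAT5Δ750 tumours and between 9.24 and 15.6 in gland. No more is said of Dsc3 than that it was dim on all 16 arrays. Of the 4 Pkp2 probe sets, 2 were above 35.4 on 0 arrays.

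The array STAT5ca_177 stood apart from the other tumours. Its mean correlation with the other arrays of its group was 0.67, against 0.808 or more for the other 15 arrays. The mean log2 level of 12 luminal epithelial genes was 5.38 on this array, 10.4 to 11.5 on the other 6 STAT5ca arrays, 10.1 to 11.1 in STAT5Δ750 tumours and 8.31 to 9.62 in gland. Among these, the luminal keratins Krt8 and Krt18 had scaled signals of 33.5 and 66.5 on STAT5ca_177, whereas E-cadherin (Cdh1), at 747, was close to the 742 of gland 1. The mean of 8 macrophage genes was 11.8 on STAT5ca_177 and 8.01 to 9.28 on the other 6 STAT5ca arrays. All 8 tested desmosome genes were lower on this array than on each of the other 6 STAT5ca arrays, where 22.5% of all genes tested were. The log2 difference from their mean ran from -2.40 for Jup to -5.22 for Perp, against a median of 0.04 over all genes. The tests of the desmosome genes and the counts of the other gene lists are therefore given with and without it. Leaving out the STAT5ca array where these 8 genes were lowest raises their STAT5ca means and narrows their spread by construction. In STAT5Δ750 tumours their log2 changes then stay as they are and only their SE falls, since all groups share an estimate of the spread. Results without STAT5ca_177 are thus no independent support for those with it. What set this array apart was not tested.

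Tumours and gland also differed in other ways. In both tumour groups all 6 tested adipocyte genes, all 8 T and B cell genes and 7 of 8 endothelial genes were lower than in gland, as were 11 of 11 skeletal muscle genes in STAT5ca tumours and 10 of 11 in STAT5Δ750 tumours. Without STAT5ca_177 these counts were equal, save 11 of 11 muscle genes in both. In bulk samples, fewer cells of a type and less RNA per cell cannot be told apart. The ratio of 3′ to 5′ beta-actin signal, which rises as RNA degrades, was 1.76 to 5.38 in STAT5ca tumours (2.19 on STAT5ca_177) and 1.27 to 3.52 in STAT5Δ750 tumours, and 1.07 to 1.25 in gland. Every tumour array was above every gland array in this ratio. The same ratio for Gapdh overlapped, at 0.79 to 1.71 in STAT5ca tumours, 0.76 to 0.86 in STAT5Δ750 tumours and 0.84 to 1.03 in gland.

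Perp had the highest log2 change of the 8 tested genes against gland in both tumour groups. Its scaled signal in STAT5ca tumours had a lowest value of 35.0 on STAT5ca_177, a median of 1684 and a highest value of 2709. In STAT5Δ750 tumours the lowest, median and highest were 646, 1380 and 2676. The glands had 141, 92.3 and 116. With the exception of STAT5ca_177, which lay below all glands, the lowest tumour was thus more than 4 times the highest gland. Perp rose by 2.95 ± 0.94 (log2 change ± SE, 7 against 3 arrays; limma adjusted p = 0.0329) in STAT5ca tumours, a 7.75-fold change. It rose by 3.42 ± 0.96 (6 against 3 arrays; limma adjusted p = 0.0208) in STAT5Δ750 tumours, a 10.7-fold change. Without STAT5ca_177 the changes were 3.70 ± 0.46 (adjusted p = 3.5e-05) and 3.42 ± 0.46 (adjusted p = 0.000103), and Perp ranked 11th of 9214 genes by log2 change in each comparison. With all arrays kept, leaving out any 1 gland ended the call in both comparisons (adjusted p up to 0.119 and 0.0979), as did leaving out STAT5ca_213, STAT5ca_159 or STAT5ca_171 in STAT5ca tumours. With the beta-actin ratio as a covariate, Perp differed by 2.05 (adjusted p = 0.357) and 2.88 (adjusted p = 0.0886) on all arrays, and by 3.42 (adjusted p = 0.00332) and 3.26 (adjusted p = 0.000886) without STAT5ca_177.

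**Figure D1:**
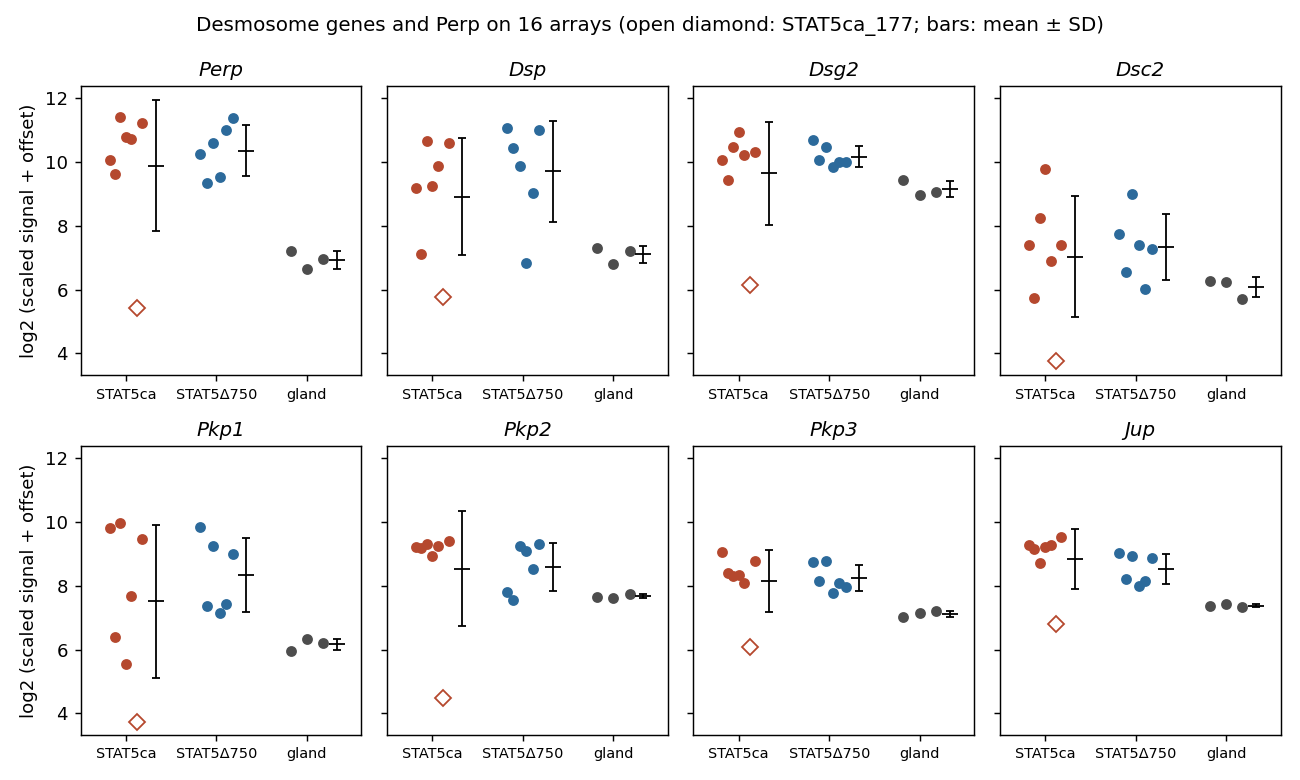
Log2 of scaled signal plus offset for the 8 tested genes (1 panel each) on STAT5ca, STAT5Δ750 and gland arrays; points are arrays, the open diamond is STAT5ca_177, and bars are mean ± SD of 7, 6 and 3 arrays. Perp, Pkp3 and Jup lay above all 3 glands on the 12 tumour arrays other than STAT5ca_177, which was the lowest STAT5ca array in every panel.

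Jup, plakoglobin, was the other gene that passed in STAT5ca tumours. Its scaled signal there had a lowest value of 103 on STAT5ca_177, a median of 586 and a highest value of 734. In STAT5Δ750 tumours the lowest, median and highest were 246, 377 and 520, and the glands had 156, 164 and 153. The 12 tumours other than STAT5ca_177 lay above all 3 glands. Jup rose by 1.49 ± 0.46 in STAT5ca tumours (limma adjusted p = 0.0290). In STAT5Δ750 tumours its log2 change was 1.17 ± 0.47 (adjusted p = 0.0934), which did not pass. Without STAT5ca_177 it rose in both, by 1.83 ± 0.26 (adjusted p = 0.000111) and by 1.17 ± 0.26 (adjusted p = 0.00395). The call on all arrays ended without any 1 gland or without STAT5ca_213 (adjusted p up to 0.0980). With the beta-actin ratio as a covariate Jup differed by 0.73 (adjusted p = 0.482) in STAT5ca tumours on all arrays, and by 1.33 (adjusted p = 0.0104) without STAT5ca_177.

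Dsp, desmoplakin, was high in most tumours but not in all. Its scaled signal in STAT5ca tumours had a lowest value of 46.5 on STAT5ca_177, a median of 595 and a highest value of 1602. In STAT5Δ750 tumours the lowest, median and highest were 107, 1150 and 2137, and the glands had 152, 103 and 140. STAT5ca_124, at 130, and STAT5Δ750_178, at 107, lay within the range of the glands, while the other 10 tumours apart from STAT5ca_177 lay above it. The log2 change was 1.81 ± 1.0 (adjusted p = 0.203) in STAT5ca tumours and 2.6 ± 1.03 (adjusted p = 0.0871) in STAT5Δ750 tumours, and neither passed. Without STAT5ca_177 Dsp rose in both, by 2.34 ± 0.85 (adjusted p = 0.0449) and by 2.6 ± 0.85 (adjusted p = 0.0327). These calls were near the threshold: with STAT5ca_177 and 1 further array left out, Dsp passed in 4 of 15 fits for STAT5ca tumours and in 8 of 15 for STAT5Δ750 tumours, with adjusted p up to 0.138 and 0.124. Tested singly without STAT5ca_177, the Dsp probe sets 1435493_at (limma adjusted p = 0.0751 and 0.104) and 1427610_at (0.108 and 0.0557) passed in neither comparison.

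The plakophilins, which gather cadherins and desmoplakin into the plaque, differed among themselves. Pkp3, found in most epithelia, had a lowest scaled signal of 60.3 on STAT5ca_177, a median of 320 and a highest value of 528 in STAT5ca tumours. It had 210, 270 and 428 in STAT5Δ750 tumours, and the glands had 122, 133 and 139. All 12 other tumours were above the glands. On all arrays the log2 changes were 1.03 ± 0.46 (adjusted p = 0.117) and 1.13 ± 0.47 (adjusted p = 0.106), which did not pass. Without STAT5ca_177 Pkp3 rose by 1.38 ± 0.26 (adjusted p = 0.00113) in STAT5ca tumours and by 1.13 ± 0.26 (adjusted p = 0.00549) in STAT5Δ750 tumours.

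Pkp2, the plakophilin of simple epithelia and heart, was even among STAT5ca tumours and split among STAT5Δ750 tumours. In STAT5ca tumours its lowest scaled signal was 14.4 on STAT5ca_177, and the other 6 lay between 484 and 669. In STAT5Δ750 tumours the lowest, median and highest were 182, 452 and 625, and the glands had 195, 190 and 208. STAT5Δ750_165 lay below all 3 glands and STAT5Δ750_160, at 214, just above them. The log2 changes on all arrays were 0.86 ± 0.83 (adjusted p = 0.476) and 0.91 ± 0.85 (adjusted p = 0.477). Without STAT5ca_177 Pkp2 rose by 1.54 ± 0.35 (adjusted p = 0.00331) in STAT5ca tumours, while its change of 0.91 ± 0.35 in STAT5Δ750 tumours did not pass (adjusted p = 0.0630).

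Pkp1, the plakophilin of suprabasal layers of stratified epithelia, had the widest spread over tumours of the 8 genes. In STAT5ca tumours its lowest, median and highest scaled signals were 5.43 on STAT5ca_177, 198 and 988. In STAT5Δ750 tumours they were 133, 331 and 915, and the glands had 54.8, 72.4 and 65.6. STAT5ca_169, at 39.2, was below all 3 glands and STAT5ca_124, at 77.0, was near them. The log2 changes of 1.36 ± 1.12 (adjusted p = 0.401) and 2.17 ± 1.15 (adjusted p = 0.199) did not pass, nor did they without STAT5ca_177 (1.99 ± 0.91, adjusted p = 0.105, and 2.17 ± 0.91, adjusted p = 0.0890).

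The cadherins Dsg2 and Dsc2 are the pair of desmosomal cadherins found in simple epithelia. Dsg2 had a lowest scaled signal of 62.7 on STAT5ca_177, a median of 1188 and a highest value of 1977 in STAT5ca tumours. It had 904, 1041 and 1639 in STAT5Δ750 tumours, and the glands had 687, 494 and 532. STAT5ca_124, at 680, was just below gland 1, and the other 11 tumours lay above all glands. The log2 changes were 0.49 ± 0.71 (adjusted p = 0.645) and 1.01 ± 0.73 (adjusted p = 0.351) on all arrays. Without STAT5ca_177 Dsg2 rose by 1.08 ± 0.29 (adjusted p = 0.0101) in STAT5ca tumours and by 1.01 ± 0.29 (adjusted p = 0.0172) in STAT5Δ750 tumours, about 2.11-fold and 2.02-fold. These calls did not hold throughout. With STAT5ca_177 and 1 further array left out, Dsg2 passed in 14 and 13 of 15 fits (adjusted p up to 0.0559 and 0.0915, both without gland 4). Without STAT5ca_177, quantile normalization gave adjusted p = 0.0866 and 0.0633, and the deposited scaling gave 0.0610 in STAT5ca tumours. Tested singly without STAT5ca_177, the Dsg2 probe sets 1449740_s_at and 1426153_a_at passed in both comparisons, and 1425619_s_at, 1449741_at and 1460380_at in neither. Of these, 1426153_a_at was above 35.4 on 10 arrays, all of them tumours, and was dim in every gland. A probe set high in tumours alone can pass the filter, so the passes of 1426153_a_at have no weight of their own.

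Dsc2 had a lowest scaled signal of 5.70 on STAT5ca_177, a median of 161 and a highest value of 881 on STAT5ca_169 in STAT5ca tumours. It had 57.1, 154 and 505 in STAT5Δ750 tumours, and the glands had 69.1, 68.4 and 44.5. STAT5ca_124, at 44.9, and STAT5Δ750_254, at 57.1, lay within the range of the glands. Dsc2 did not pass with or without STAT5ca_177. Its log2 changes were 0.96 ± 0.91 (adjusted p = 0.472) and 1.26 ± 0.94 (adjusted p = 0.368) on all arrays, and 1.5 ± 0.71 (adjusted p = 0.116) and 1.26 ± 0.71 (adjusted p = 0.206) without it.

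Counted over the genes, 2 of 8 (Perp, Jup) rose in STAT5ca tumours, where 13.9% of all 9261 genes did. In STAT5Δ750 tumours 1 of 8 (Perp) rose, where 9.29% of all genes did. None fell. The median log2 change of the 8 genes was 1.19 and 1.21, against 0.25 and 0.08 over all genes tested, and 1.68 and 1.21 without STAT5ca_177. Without STAT5ca_177, 6 of 8 (all but Dsc2 and Pkp1) rose in STAT5ca tumours, where 19.9% of 9214 genes did, and 5 of 8 (Perp, Dsp, Dsg2, Pkp3, Jup) in STAT5Δ750 tumours, where 13.1% did. Both comparisons share the 3 glands. Another scaling of the arrays moved these counts. With the deposited scaling and all arrays, 0 of 8 passed in STAT5ca tumours and the calls over all genes were 622 higher and 1226 lower, against 1284 and 870 with the common median. Without STAT5ca_177 the deposited scaling left 4 of 8 (Perp, Pkp2, Pkp3, Jup) in STAT5ca tumours and 5 of 8 in STAT5Δ750 tumours, and quantile normalization left 4 (the same genes) and 4 (Perp, Dsp, Pkp3, Jup). With the beta-actin ratio as a covariate and without STAT5ca_177, 3 of 8 (Perp, Dsg2, Jup) passed in STAT5ca tumours and 4 of 8 (Perp, Dsg2, Pkp3, Jup) in STAT5Δ750 tumours. Of all 9214 genes, 1248 and 1095 were higher with the deposited scaling in these fits without STAT5ca_177. Quantile normalization gave 1469 and 1263 higher genes, and the beta-actin covariate 558 and 818. On all arrays the Gapdh ratio as a covariate left 2 and 1 of the 8 genes, against 0 and 0 with the beta-actin ratio. Of all 9261 genes, 1351 and 1020 were higher with the Gapdh ratio, against 228 and 485 with the beta-actin ratio.

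**Figure D2:**
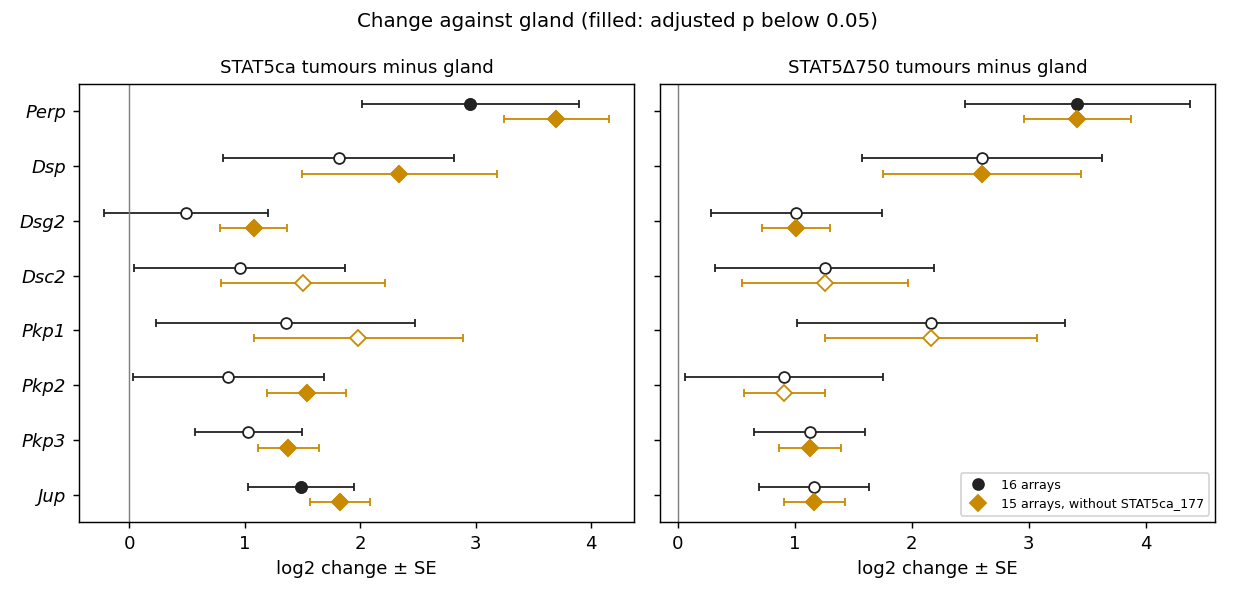
Log2 change ± SE of each gene in STAT5ca tumours (left) and STAT5Δ750 tumours (right) minus gland, from the 3-group model on 16 arrays (circles) and on 15 arrays without STAT5ca_177 (diamonds); filled symbols passed at an adjusted p below 0.05. On 16 arrays Perp and Jup passed on the left and Perp on the right, and on 15 arrays 6 and 5 of the 8 genes passed.

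The spread of single arrays gave a complementary view that needs no model. In STAT5Δ750 tumours every array was above every gland for 5 of 8 genes (Perp, Dsg2, Pkp1, Pkp3, Jup), where 18.5% of all genes were. In STAT5ca tumours this held for 0 of 8, where it held for 14.5% of all genes, and without STAT5ca_177 for 4 of 8 (Perp, Pkp2, Pkp3, Jup), where it held for 20.9%. For STAT5Δ750 tumours the share of all genes in that smaller fit was 18.6%.

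The 18 tested probe sets had the same sign throughout: the log2 change was positive for 18 of 18 in both comparisons with gland, with and without STAT5ca_177. A probe set that is dim in gland can pass the filter through tumours alone, which favours a positive sign. Dsp 1427610_at and Dsg2 1426153_a_at, above 35.4 on 6 and 10 arrays, were dim in all 3 glands. The share of all probe sets with a positive change was not computed, so the count of signs has no background to set it against. Probe sets of 1 gene share its RNA and are no replicates. In a fit over all 15764 tested probe sets, 2 passed in STAT5ca tumours (Perp and Jup) and 2 in STAT5Δ750 tumours (Perp and the Pkp3 probe set 1418832_at), where 13% and 9.78% of all probe sets were higher. That Pkp3 probe set changed by 1.66 ± 0.50 in STAT5Δ750 tumours (adjusted p = 0.0306), whereas 1418831_at, which stood for the gene, did not pass. Probe set 1418832_at was above 35.4 on 13 arrays, and its scaled signals in the glands were 17.6, 20.1 and 46.0. The caution on the filter therefore holds for it too. Without STAT5ca_177, 10 and 8 of the 18 passed, where 17.7% and 13.3% of all probe sets were higher. The 3 Dsp probe sets shared STAT5Δ750_178 as their lowest STAT5Δ750 array. STAT5ca_177 was the lowest STAT5ca array for 2 of them, and for 1427610_at it was STAT5ca_123.

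Among the 12 tumours other than STAT5ca_177 the genes varied to very different degrees. The highest over the lowest signal was 25.2-fold for Pkp1, 20-fold for Dsp and 19.6-fold for Dsc2. It was 4.19-fold for Perp, 3.69-fold for Pkp2, 2.99-fold for Jup, 2.91-fold for Dsg2 and 2.51-fold for Pkp3. The SD of the log2 level over these tumours was 1.5 for Pkp1, 1.40 for Dsp and 1.16 for Dsc2, against a median of 0.49 over all genes tested. An SD as large as theirs was found in 3.67%, 4.61% and 7.48% of genes. Perp, at 0.73, was matched or passed by 23.2% of genes, and Jup, at 0.50, by 49.2%. Pkp1, Dsp and Dsc2 singled out the same tumours only in part. STAT5ca_169 had the highest Dsc2 signal and the lowest Pkp1 signal of the 12. STAT5ca_124 had low Dsp, Dsc2, Pkp1 and Dsg2 with Pkp2 and Jup (564) well above the glands. STAT5Δ750_160 had the highest Dsp signal, 2137, with Pkp2 near the level of gland.

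**Figure D3:**
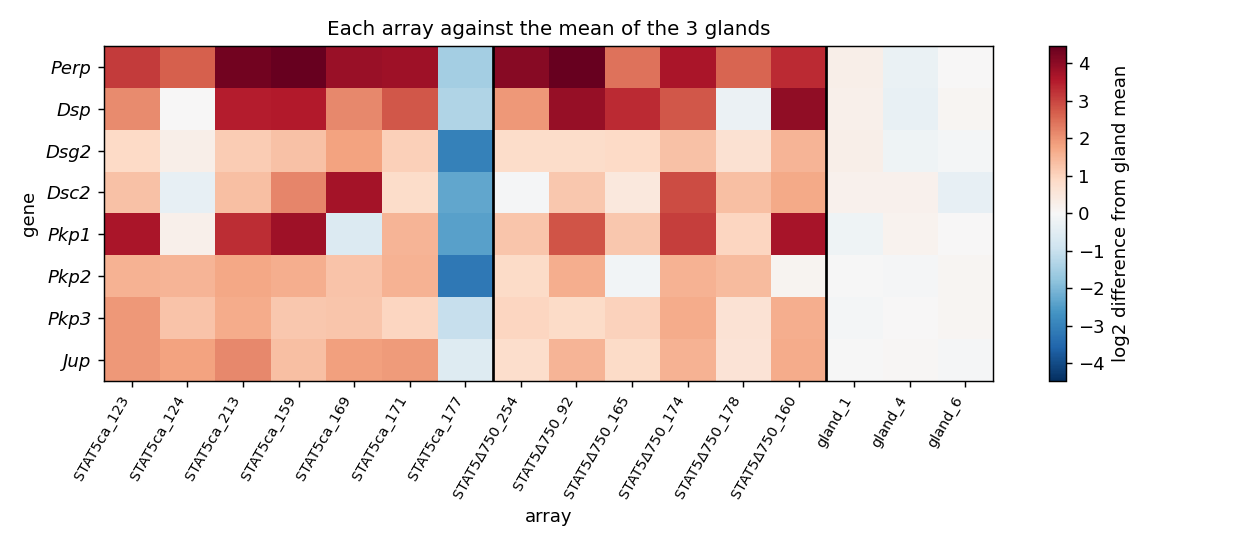
Log2 difference of each gene (rows) on each array (columns) from the mean of the 3 glands, with red above and blue below; black lines part STAT5ca, STAT5Δ750 and gland arrays. The column of STAT5ca_177 is blue for all 8 genes, the Perp row is red on the other 12 tumours, and the Dsp, Dsc2 and Pkp1 rows change from tumour to tumour.

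Of the 28 pairs of the 8 genes, 26 had a positive Pearson correlation over these 12 tumours, with a median of 0.29. This is a description of 12 arrays that share their processing and fall into 2 genotypes, with no test. The highest value was 0.84 for Dsg2 and Dsc2, which lie in the same cluster of desmosomal cadherin genes, and the lowest was -0.24 for Dsp and Pkp2. With STAT5ca_177 added, 28 of 28 were positive with a median of 0.74, so that most of the common movement over 13 tumours rested on that array.

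STAT5ca and STAT5Δ750 tumours were not told apart by any of the 8 genes, and 0 of 9261 genes passed between them in limma (0%), where 764 had an unadjusted p under 0.05. On all arrays the log2 differences, STAT5ca minus STAT5Δ750, ran from -0.81 for Pkp1 to 0.32 for Jup. For Perp the difference was -0.46, with a 95% interval from -2.07 to 1.15. Without STAT5ca_177 it was 0.28, with an interval from -0.51 to 1.07, and the sign had turned. Without that array, Jup was higher in STAT5ca tumours by 0.66 ± 0.21 (95% interval 0.21 to 1.12; limma adjusted p = 0.397) and Pkp2 by 0.63 ± 0.28 (adjusted p = 0.458). Neither passed after adjustment over all genes, and the intervals leave room for differences of over 1 log2 unit in either direction for Dsp and Pkp1.

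Other genes of the junctions were read from gene lists. Among 6 tested genes of the desmosome and the cornified envelope plaque, 1 rose in STAT5ca tumours and 1 in STAT5Δ750 tumours, and 5 and 3 without STAT5ca_177. The 1 was Pkp4, an armadillo protein related to the plakophilins, with log2 changes of 1.48 ± 0.26 (adjusted p = 0.00089) and 1.01 ± 0.26 (adjusted p = 0.0142). Periplakin (Ppl), which binds keratin at the plaque, had log2 changes of 1.46 and 1.64 and did not pass on all arrays (adjusted p = 0.0916 and 0.0742), while it passed in both without STAT5ca_177. Envoplakin (Evpl), its partner, had log2 changes of 1.33 and 0.93 (adjusted p = 0.129 and 0.323), and passed in STAT5ca tumours without STAT5ca_177. Tmem79, a membrane protein of the outer epidermis, had log2 changes of 1.30 and 1.35 (adjusted p = 0.110 and 0.115), and passed in both without STAT5ca_177.

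Among 9 adherens junction genes, 4 rose in STAT5ca tumours and 2 in STAT5Δ750 tumours, and 4 and 3 without STAT5ca_177. E-cadherin (Cdh1) rose by 1.42 ± 0.31 (adjusted p = 0.00405) and 1.5 ± 0.32 (adjusted p = 0.00429), and alpha-catenin (Ctnna1), which ties it to actin, by 0.79 ± 0.21 (adjusted p = 0.0120) and 0.69 ± 0.21 (adjusted p = 0.0327). Beta-catenin (Ctnnb1) and Nectin4, an adhesion molecule, passed in STAT5ca tumours (0.78 ± 0.23 and 1.99 ± 0.45) and not in STAT5Δ750 tumours (0.59 ± 0.23 and 1.31 ± 0.46), and the difference between the tumour groups was not called for either. Without STAT5ca_177 Nectin4 passed in STAT5Δ750 tumours too (adjusted p = 0.00619). Among 11 tight junction genes, 1 and 2 rose on all arrays, and 9 and 7 without STAT5ca_177. F11r, a junctional adhesion molecule, rose in both (1.30 and 1.33), and claudin Cldn4 in STAT5Δ750 tumours (2.98 ± 0.82, adjusted p = 0.0182), with a pass in STAT5ca tumours as well without STAT5ca_177 (adjusted p = 0.0118). Among 8 hemidesmosome genes, which fix cells to the matrix, 0 and 1 rose on all arrays, and leaving out STAT5ca_177 gave 2 that were higher and 2 that were lower in STAT5ca tumours, and 1 that was higher in STAT5Δ750 tumours. The median log2 change was -0.53 and 0.38 for hemidesmosome genes, 0.79 and 1.27 for adherens junction genes, and 1.42 and 1.49 for tight junction genes.

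Keratins, the filaments that desmosomes anchor, passed in 0 of 12 cases in STAT5ca tumours and in 1 of 12 in STAT5Δ750 tumours, and in 3 each without STAT5ca_177. The 1 was Krt7 of simple epithelium, at 3.0 ± 0.91 (adjusted p = 0.0299). The 3 without STAT5ca_177 were Krt7 and the luminal keratins Krt8 and Krt18, in both tumour groups. Krt8 then changed by 2.16 (limma adjusted p = 2.8e-05) and 1.94 (0.0001), and Krt18 by 2.31 (7.6e-06) and 2.07 (2.5e-05). On all arrays Krt8 and Krt18 did not pass. Krt6a and Krt16, keratins of activated and stratified epithelium, had log2 changes of 3.87 and 2.43 in STAT5Δ750 tumours and did not pass (adjusted p = 0.0642 and 0.128). Nor did the basal keratins Krt5 (-0.86 ± 0.81 in STAT5ca and 0.08 ± 0.83 in STAT5Δ750 tumours) and Krt14 (1.38 ± 1.36 and 1.87 ± 1.40). Among 15 regulators of epithelial junction genes, 1 rose in STAT5ca tumours (Cebpb, by 0.95 ± 0.32) and 2 rose in STAT5Δ750 tumours (Klf5, by 2.26 ± 0.67, and Ovol1, by 1.91 ± 0.60), all of them transcription factors. Cebpa, another, fell there by 1.80 ± 0.55 on the log2 scale (adjusted p = 0.03). Without STAT5ca_177, 11 and 8 rose, and Cebpa fell in both. Trp63, the basal regulator that drives Perp in mouse skin, had log2 changes of -1.64 ± 0.69 (adjusted p = 0.0982) and -0.31 ± 0.71 (adjusted p = 0.795).

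Since Perp was first described as a p53 target, other p53 target genes were set beside it. Of 17 tested, as many fell as rose on all arrays: 3 each in STAT5ca tumours and 2 each in STAT5Δ750 tumours. Without STAT5ca_177, 3 were higher and 4 lower in STAT5ca tumours, and 2 higher and 4 lower in STAT5Δ750 tumours. Over all genes, 13.9% and 9.29% rose on all arrays, and 9.39% and 10.4% fell. Without STAT5ca_177, 19.9% and 13.1% of all genes rose, and 13.1% and 13.4% fell. Whether p53 had a part in the level of Perp was not tested. Plk2, a kinase, rose by 1.54 ± 0.43 and 2.07 ± 0.44, and Zmat3, an RNA-binding protein, by 1.41 ± 0.41 and 1.32 ± 0.42. Ccng1, a cyclin, fell by 1.24 and 1.53 on the log2 scale, and Sesn1, a stress-response gene, fell by 1.78 in STAT5Δ750 tumours. The median log2 change of the list was below 0 in both, at -0.0042 and -0.12, and -0.20 and -0.12 without STAT5ca_177.

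Cell type markers were read beside the desmosome genes. Of 12 luminal epithelial genes, 1 rose in STAT5ca tumours and 2 in STAT5Δ750 tumours, and 10 and 9 without STAT5ca_177. Cdh1, Cldn3, Cldn7, Ehf, Krt8, Krt18 and Krt19 are also in the lists above. Of 9 basal and myoepithelial genes, 4 fell in STAT5ca tumours and 2 in STAT5Δ750 tumours, with and without STAT5ca_177. Of 8 fibroblast genes, 2 passed in each direction for STAT5ca tumours and 1 in each direction for STAT5Δ750 tumours, and of 8 macrophage genes 1 and 0 rose and none fell. Without STAT5ca_177, 1 fibroblast gene was higher and 2 were lower in STAT5ca tumours, and 2 were higher and 1 lower in STAT5Δ750 tumours. For macrophage genes it was then 1 higher and 3 lower in STAT5ca tumours, and 1 higher and 2 lower in STAT5Δ750 tumours. Of 11 tested squamous and skin genes, 2 rose in STAT5ca tumours and 0 in STAT5Δ750 tumours. Without STAT5ca_177 the squamous gene Lor no longer passed the filter, and 2 of the remaining genes rose in each tumour group. The 2 on all arrays were the epidermal proteases Klk10 and Klk11, at 4.91 ± 1.57 (adjusted p = 0.0331) and 3.77 ± 1.23 (adjusted p = 0.0371). The mean log2 level of the squamous list ran from 4.74 to 7.67 on the 6 other STAT5ca arrays and from 5.12 to 8.0 in STAT5Δ750 tumours, against 4.84 on STAT5ca_177 and 4.21 to 4.55 in gland. Only 11 of the 16 squamous genes named on the array passed the filter, which a gene high in tumours alone can pass, so this difference in level has no weight of its own. The part of these cell types in the desmosome results was not tested.

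**Figure D4:**
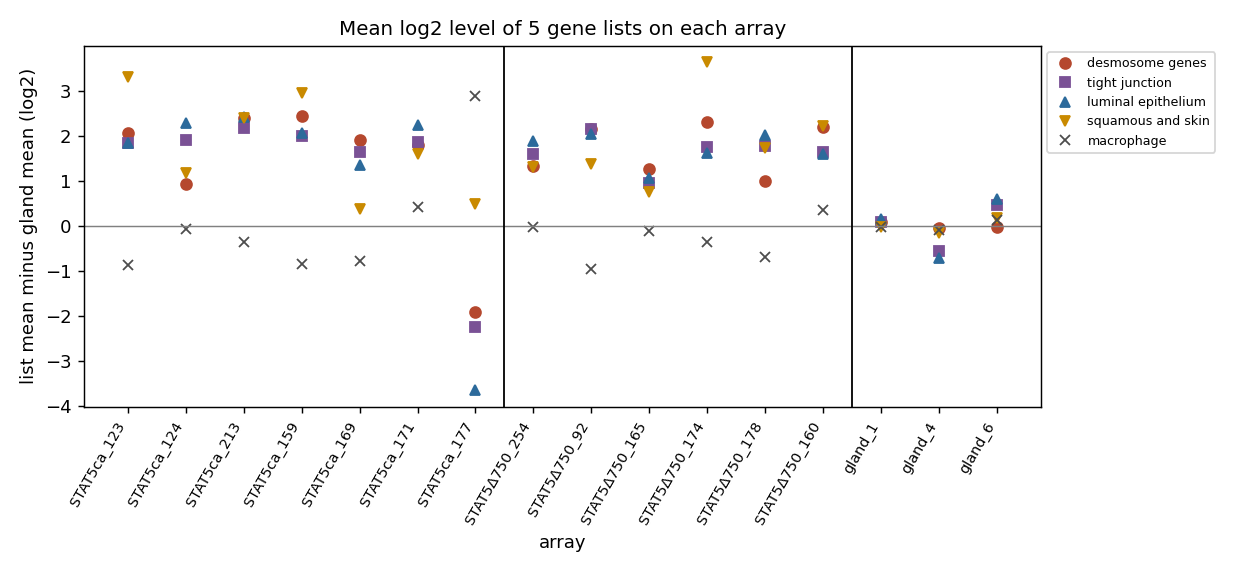
Mean log2 level of 5 gene lists (8 desmosome genes, tight junction, luminal epithelium, squamous and skin, macrophage) on each array, minus the mean over the 3 glands; black lines part STAT5ca, STAT5Δ750 and gland arrays. On STAT5ca_177 the luminal, tight junction and desmosome means fall below gland while the macrophage mean is the highest of the 16 arrays, and STAT5ca_124 and STAT5Δ750_178 have high luminal means with the lowest desmosome means of the other 12 tumours.

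The mean level of the 8 desmosome genes moved with the mean of the luminal list only where STAT5ca_177 was included. Over 13 tumours the Pearson correlation of both means was 0.87, and over the 12 tumours without STAT5ca_177 it was 0.06. For the squamous and skin list it was 0.59 and 0.60, and for the tight junction list 0.91 and 0.45. These are descriptions of few arrays, with no test. STAT5ca_124 and STAT5Δ750_178 had the lowest desmosome means of the 12, 8.13 and 8.20, with luminal means of 11.3 and 11.05. Their beta-actin ratios were 5.38 and 1.33. Whether RNA quality or cell content had a part in these levels was not tested.

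The genes whose profiles were most like that of Perp over the 12 tumours, by Pearson correlation, were Rarb (0.87), Slc5a8 (0.85), 1110004F10Rik (0.84), Fgf1 (0.83) and Cirbp (0.83). Rarb is a retinoic acid receptor, Slc5a8 a sodium-coupled monocarboxylate transporter, Fgf1 a growth factor and Cirbp an RNA-binding protein. With STAT5ca_177 added, Slc5a8 kept 0.89 and the other 4 lay between 0.35 and 0.55. The genes most like the mean of the 8 desmosome genes were Mboat1 (0.92), a membrane acyltransferase, Dlg5 (0.91), a junctional scaffold protein, Cdh1 (0.85), Rab10 (0.84), a membrane traffic GTPase, and Tnfsf9 (0.84), a cytokine. With STAT5ca_177 added, Mboat1, Dlg5 and Cdh1 had 0.98, 0.98 and 0.94, while Rab10 and Tnfsf9 had -0.29 and -0.63. Each is among the highest of the correlations with all other genes tested and carries no test.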

How the data were processed

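Total RNA of 7 STAT5ca tumours, 6 STAT5Δ750 tumours and 3 normal glands was hybridised as biotin-labelled cRNA, per the labels' protocols. The authors deposited MAS5 signals, an intensity on a linear scale for each of 22690 probe sets, per the submitters' processing notes; no MAS5 version or detection call is used here, and the number of arrays limits the precision. The medians of the arrays, from 57.3 to 90.7, differed by 1.58 times, more than the 1.5 allowed, and each array was scaled to a common median of 75.9. Log2 was taken after adding 7.9, the 20th percentile of deposited signals. The filter value of 35.4 was their 40th percentile, and 15764 probe sets passed. One symbol was given for 20393 probe sets, several for 691 and none for 1606. The highest of a gene's probe sets by mean level stood for the gene.

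A linear model of the 3 groups was fitted per gene with limma 3.58.1 (R 4.3.3), which gave 13 residual degrees of freedom and 2.98 from the prior. Tests were two-sided, with Benjamini-Hochberg adjustment over all genes and a threshold of 0.05. The fit was run on simulated data with normal noise and no outlying array. That run therefore says nothing of how STAT5ca_177 affects the results. All 9 desmosome genes were described. Of other lists, up to 4 genes were named, those that passed in most comparisons and then had the smallest adjusted p, besides Krt8, Krt18, Krt5, Krt14, Cdh1, Trp63 and Trp53 (not analysed here), and the 5 genes most like Perp or the desmosome mean. The genes and lists were chosen with earlier results of these data known. Alternatives were other scalings, offsets, filters, probe set rules, array weights, the beta-actin ratio as a covariate and left-out arrays; those that combine the loss of STAT5ca_177 with another choice were added after seeing the data. Promoters came from RefSeq on GRCm38.p6. Figures were drawn with matplotlib 3.10.9.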

Additional observations from a re-analysis of the deposited data

Results flagged for a closer look

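On 1 array, STAT5ca_177, 5 of the 8 desmosome genes lay far below the other 6 STAT5ca tumours, by the gap to the nearest of them against the whole range of the group. The log2 level of Perp was 5.42 there, against 9.61 to 11.4 on the other 6. That of Dsg2 was 6.14, against 9.43 to 10.95. That of Pkp2 was 4.48, against 8.94 to 9.40, the widest gap for its range. Pkp3 had 6.09, against 8.10 to 9.07, and Jup 6.80, against 8.73 to 9.53. In all, 16 groups of values were examined, 8 genes in each tumour genotype, and chance marks about 1 in 20. The 5 marks fell on the same array and are not independent of each other, and 0 fell in STAT5Δ750 tumours.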

How the results depend on the processing

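No paired analysis was possible because the groups share no replicate number. Counts below are of the 8 desmosome genes that passed against gland (2 in STAT5ca and 1 in STAT5Δ750 tumours in the report) and of all genes called. In STAT5ca tumours the desmosome count was 0 with the deposited scaling, 0 with only the arrays of the 2 groups, 0 with the beta-actin ratio as a covariate and 7 with array quality weights. In STAT5Δ750 tumours it was 2 with the mean of probe sets, 6 with only the arrays of the 2 groups, 8 with array quality weights and 0 with the beta-actin covariate. All genes called were 3274 and 2879 probe sets when probe sets were tested singly, 4997 and 4861 genes with weights, 2857 in STAT5Δ750 tumours with only the arrays of the 2 groups, and 772 in STAT5ca tumours with the covariate. Without STAT5ca_177, and with the deposited scaling, quantile normalization or the covariate, the desmosome count was 4, 4 and 3 in STAT5ca tumours and 5, 4 and 4 in STAT5Δ750 tumours, where 2753 and 2877 genes in all were called with the first 2 of these settings. Leaving out 1 array, or STAT5ca_177 and 1 other, gave desmosome counts of 0 to 7 and 0 to 6, 1014 to 3206 and 690 to 2654 genes, and 0 to 1 genes between the tumour groups. Signs reversed in the comparison of STAT5ca with STAT5Δ750 tumours, where no desmosome gene passed in any fit. Pkp2 was 0.061 with an offset of the 40th percentile. With weights Perp was 0.18, Pkp2 0.42 and Pkp3 0.10. Without STAT5ca_177, Perp, Dsc2, Pkp2 and Pkp3 were 0.16, 0.14, 0.50 and 0.13 with the deposited scaling, 0.15, 0.23, 0.48 and 0.11 with quantile normalization, and 0.16, 0.41, 0.44 and 0.093 with the covariate, where Dsg2 was 0.18. Over left-out arrays the ranges were -0.72 to 0.49 for Perp, -1.36 to 0.20 for Dsp, -0.74 to 0.23 for Dsg2, -0.76 to 0.62 for Dsc2, -1.22 to 0.34 for Pkp1, -0.26 to 0.77 for Pkp2 and -0.25 to 0.35 for Pkp3. Against gland, the sign turned for Pkp2 in STAT5ca tumours with the covariate, at -0.13. Single genes kept direction and side of the threshold in 633 of 696 values under the listed alternatives. Most of these results had not passed in the main fit and had no call to lose, so this count says little about stability. Of the other values, 20 lost a call, 27 gained a call and 16 changed sign. Fits with left-out arrays and the 2-group fits hold fewer arrays. All groups of a fit share an estimate of the spread, so leaving out STAT5ca_177 also moves the SE in STAT5Δ750 tumours. For Perp there the SE went from 0.96 to 0.46, with the log2 change at 3.42 in both fits. What caused the other moves was not tested. Signals near the offset, such as those of Dsc3, limit what can be said.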
